A study of Homo sapiens with 47 samples.

Results

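The comparison described here asked what changed in chromatin when dCas9-p300(core) was sent to a pool of distal estrogen receptor binding sites (ERBSs) rather than to a control promoter. Of the 47 libraries of the series, 8 entered it: 2 of H3K27ac and 2 of RNA polymerase II (RNAPII) with the gRNAs of Pool 2, and 2 of each with gRNAs for the IL1RN promoter. All came from Ishikawa cells, an endometrial carcinoma line, which were kept in medium depleted of hormones and transfected with plasmids for dCas9-p300(core) and for the gRNAs. Both groups therefore carried the same fusion protein and had no added estrogen, and by design they differed in the gRNAs alone. The gRNA plasmids of a pool were mixed before transfection, so that the effect of 1 site on another cannot be told apart, nor can the number of cells that carried a mark and its level per cell. The labels number the replicates and do not say whether they came from separate transfections, so p-values measure the spread between these libraries, which may be technical. The deposited table gives the normalized signal in 23 regions that are each about 2000 bp wide, and a list of peaks was deposited for each library.

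p300 is a histone acetyltransferase, and its catalytic core acetylates histone H3 at lysine 27 where dCas9 and a gRNA bring it to DNA. H3K27ac marks active promoters and enhancers. RNAPII is found at transcribed promoters and, at lower levels, at many active enhancers, so that its signal at a distal site and at the promoter of the neighbouring gene are separate readouts. An ERBS is a place where the estrogen receptor binds once estrogen is present, often at or near an estrogen response element.

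Pool 2 was read as MMP17-1, CISH-2, FHL2-1 and HES2-3. For MMP17-1 and CISH-2 this is the pool given in the study's methods. The methods list FHL2-3 and HES2-1 in Pool 2, FHL2-1 in Pool 3 and HES2-3 in Pool 1. The assignment used here was made after H3K27ac values had been seen. H3K27ac at these sites is therefore a description and supports nothing. MMP17 is a membrane-anchored metalloproteinase, CISH an inhibitor of cytokine signalling through JAK and STAT proteins, FHL2 a LIM-domain cofactor of transcription and HES2 a basic helix-loop-helix repressor. In hg19, MMP17-1 is chr12:132283885-132285885, 28053 bp upstream of the MMP17 gene, and it overlaps an exon and UTR of SFSWAP, a regulator of splicing, while its centre lies outside protein-coding genes. CISH-2 is chr3:50637663-50639663, centred 10542 bp downstream of the 5′ end of CISH in sequence with no protein-coding gene and 1 annotated lncRNA. FHL2-1 is chr2:106019419-106021419, in an intron of FHL2, with its centre 4295 bp from the nearest protein-coding start, which is one of FHL2. HES2-3 is chr1:6506685-6508685, centred 22955 bp upstream of HES2 inside the gene ESPN, which encodes an actin-bundling protein, and 274 bp from an annotated ESPN start.

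Each site was targeted by 4 gRNAs, and the 16 gRNAs of the 4 sites were all found without mismatch, once on their chromosome and inside their region. Those of CISH-2 and MMP17-1, the sites whose pool is not in doubt, are shown 5′ to 3′ with the PAM in capitals. The CISH-2 gRNAs cover chr3:50638582-50638750 and the MMP17-1 gRNAs chr12:132284740-132284908, a span of 169 bp at both sites.
CISHpeak2_468: agctcagaagtggcgggtggAGG
CISHpeak2_523: actggttgctcaacgtgatcTGG
CISHpeak2_550: gagaagcgttgaaggcagtgTGG
CISHpeak2_614: cgccgcttccaagaactcagAGG
MMP17peak1_154: agggtccggccacctggagtTGG
MMP17peak1_47: aggtccttacaccagaaatgAGG
MMP17peak1_254: ccagggagtgtccttcctgtGGG
MMP17peak1_300: ctgacaatggaacttgacctCGG

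The stretch that the gRNAs of a site cover sets where the fusion protein could bind, and it is printed for CISH-2, where both Pool 2 libraries gained H3K27ac peaks, and for FHL2-1, where 1 did. Both are 300 bases of the plus strand of hg19, with the 4 protospacers and their PAMs in capitals. The first is chr3:50638517-50638816 and the other chr2:106020531-106020830. The gRNAs reach 81 bp to one side of the centre and 87 bp to the other at CISH-2, whereas those of FHL2-1 are spread over 291 bp on 1 side of it, 116 to 406 bp from the centre.
CISH-2: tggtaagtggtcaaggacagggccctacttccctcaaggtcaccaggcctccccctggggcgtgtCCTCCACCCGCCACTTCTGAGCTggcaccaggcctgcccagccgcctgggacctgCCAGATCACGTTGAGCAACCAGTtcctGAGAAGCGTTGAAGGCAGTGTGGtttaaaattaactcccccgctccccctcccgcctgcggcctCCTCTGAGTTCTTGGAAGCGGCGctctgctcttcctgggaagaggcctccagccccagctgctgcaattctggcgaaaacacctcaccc
FHL2-1: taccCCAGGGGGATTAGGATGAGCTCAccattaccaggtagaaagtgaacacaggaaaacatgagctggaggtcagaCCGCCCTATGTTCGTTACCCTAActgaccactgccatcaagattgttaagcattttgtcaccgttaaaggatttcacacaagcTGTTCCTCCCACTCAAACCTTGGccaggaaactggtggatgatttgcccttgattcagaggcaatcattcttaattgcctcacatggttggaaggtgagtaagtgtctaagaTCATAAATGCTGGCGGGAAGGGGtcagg

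The estrogen response element, GGTCANNNTGACC, which reads the same on both strands, was searched for in the 23 regions. No site of Pool 2 held it without mismatch, and 2 of the 23 regions (8.7%) did. With 1 mismatch allowed in the fixed letters, MMP17-1 was the only site of Pool 2 to hold it, beside 21.7% of all regions. FHL2-3, which the study's methods put in Pool 2, held it without mismatch 56 bp from its centre. Both statements therefore turn over with the sites that the methods list. At CISH-2 the best match had 2 mismatches and lay 17 bp from the centre, within the stretch printed above. The match is a description of these letters and not of binding.

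Library sizes differed between the groups compared. H3K27ac libraries held 905 and 1252 reads in the 23 regions with Pool 2 and 1753 and 1157 with IL1RN, as recovered from the steps of the table, and 10532 and 3020 against 18664 and 4088 peaks. RNAPII libraries held 3472 and 1342 reads with Pool 2 and 819 and 2910 with IL1RN, and 40757 and 22602 against 18809 and 27078 peaks. The IL1RN library of 819 reads is labelled as a backup, and the labels do not say what this means. Peak names carry the prefix 15977 for replicate 1 of H3K27ac and for all 4 RNAPII libraries, and no such prefix for replicate 2 of H3K27ac. The labels do not say what this prefix is, and it was read here as a sequencing run. If so, H3K27ac values within replicate 1 are also values within run. Whether the replicate 2 libraries shared a run is not known. No pair of replicates was counted as 1 library. The recovered reads of each pair differed over regions that the pool does not target (chi-square test, unadjusted p under 0.05). They differed least in H3K27ac of Pool 2 (chi-square 29.6 with 18 degrees of freedom, unadjusted p = 0.0416). That p is approximate, since the median over those regions was 13 and 17 reads.

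H3K27ac was higher in both Pool 2 libraries than in both control libraries at 3 of the 4 sites, MMP17-1, CISH-2 and FHL2-1. Of these, FHL2-1 was assigned to Pool 2 after H3K27ac values had been seen. At no other of the 23 regions did the libraries separate that way, so that the share over all regions was 13.0%. HES2-3, which had a high H3K27ac signal in the controls, was not among them. Expressed as a ratio of means, the signal with Pool 2 was 7.11-fold that with IL1RN at MMP17-1, 6.73-fold at FHL2-1, 4.62-fold at CISH-2 and 0.705-fold at HES2-3.

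At CISH-2, the H3K27ac normalized signal was 2.44 and 5.68 in the Pool 2 libraries and 0.277 and 1.48 in the IL1RN libraries (4.06 ± 2.29 against 0.880 ± 0.852, SD, n = 2). Both Pool 2 values lay above both controls, and they were also the highest among all 10 dCas9-p300(core) libraries, of which the 8 others ranged from 0.261 to 1.48 with a median of 0.546. These values rest on 177 and 269 reads with Pool 2 and 40 and 88 with IL1RN.

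At MMP17-1, the H3K27ac signal was 0.898 and 3.48 with Pool 2 and 0.229 and 0.387 with IL1RN (2.19 ± 1.83 against 0.308 ± 0.112, SD, n = 2). Replicate 2 was well above replicate 1, but both exceeded the other 8 libraries, which ranged from 0.15 to 0.628. The reads numbered 65 and 165 against 33 and 23.

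At FHL2-1, the signal was 0.939 and 5.26 with Pool 2 and 0.146 and 0.775 with IL1RN. The lower Pool 2 value was within the range of the other 8 libraries, whose median was 0.262 and whose highest value was 1.15, a Pool 1 library. At HES2-3, the Pool 2 libraries gave 2.91 and 1.73 and the IL1RN libraries 4.79 and 1.80. The groups overlapped there, and the other 8 libraries, with a median of 1.79, covered the Pool 2 values as well.

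In the limma fit to all 20 H3K27ac libraries, the log2 change was 2.53 at CISH-2 (SE 0.99) and 2.55 at MMP17-1 (SE 1.08), and neither passed an adjusted p of 0.05 over the 23 regions (adjusted p = 0.342 for both). No region was called raised or lowered (0.0% of 23 in either direction), although 3 regions, the same MMP17-1, CISH-2 and FHL2-1, had a log2 change above 0 with an unadjusted p under 0.05 and none a change below 0. The signal with Pool 2 exceeded that with IL1RN at both sites within each replicate. Replicate 1 gave a Pool 2 signal 8.81-fold that of IL1RN at CISH-2 and replicate 2 one of 3.83-fold, and at MMP17-1 they gave 3.92-fold and 8.99-fold. A further fit took the sequencing run, as presumed from the prefix of the peak names, as a block. All libraries without the prefix were treated as 1 run although they may come from several. H3K27ac then rose at CISH-2 (adjusted p = 0.00801, limma) and MMP17-1 (adjusted p = 0.00942, limma). In that fit 13.0% of the regions were raised, FHL2-1 among them, and 1 (4.35%), the IL1RN promoter, was lowered. An exact permutation test of the 2 Pool 2 libraries against the 8 other dCas9-p300(core) libraries gave a two-sided p of 0.0444, unadjusted, at CISH-2 and at MMP17-1, which is the smallest that its 45 splits allow.

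**Figure D1:**
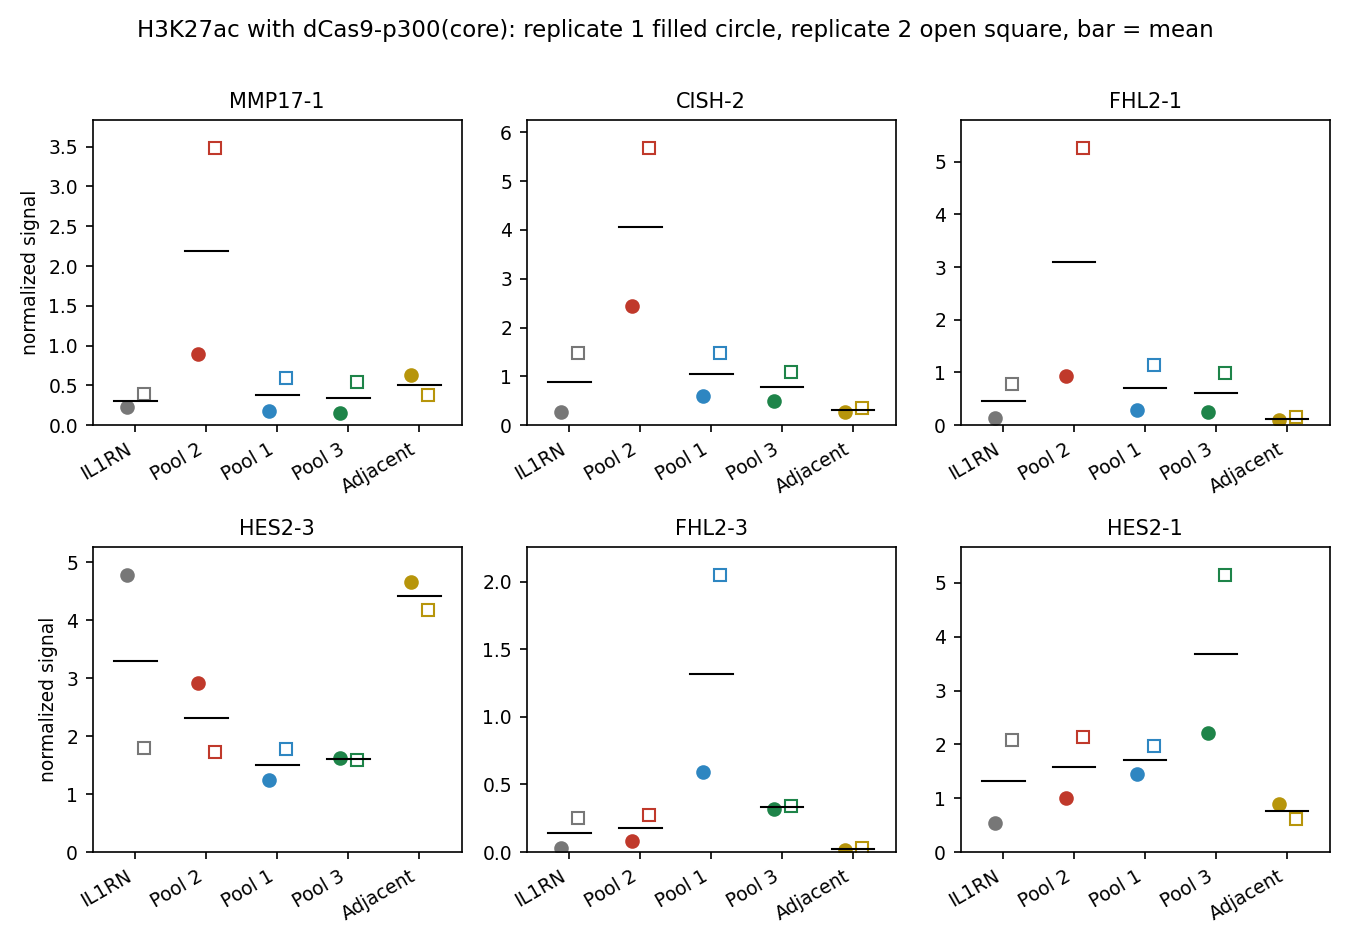
H3K27ac normalized signal (vertical axis, linear, from 0) in the 10 dCas9-p300(core) libraries, by gRNA pool, at the sites used for Pool 2 and at FHL2-3 and HES2-1. Filled circles are replicate 1, open squares replicate 2 and bars the mean of the 2. Both Pool 2 points lie above all others at MMP17-1 and CISH-2, whereas at HES2-3 they lie within the range of the others.

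FHL2-3 and HES2-1, the sites that the study's methods give for Pool 2, did not separate the groups. The H3K27ac signal at FHL2-3 was 0.0829 and 0.274 with Pool 2 and 0.0277 and 0.253 with IL1RN, based on no more than 15 reads in a library. At HES2-1 it was 1.01 and 2.13 against 0.541 and 2.09. Among Pools 1 to 3 the mean was highest with Pool 1 at FHL2-3 and with Pool 3 at HES2-1, and since the assignment used here was made from such values, this is no support for it. At HES2-3 with dCas9-VP16(10x), the mean was 3.72 with Pool 1, the pool in the methods, and 2.67 with Pool 2. With dCas9-p300(core) it was 1.51 with Pool 1 and 2.32 with Pool 2. The IL1RN means, 3.94 and 3.29, lay above both pools with each construct. These values therefore do not decide the pool of HES2-3, which stays in doubt.

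No promoter of a target gene had a raised H3K27ac signal by the test. The MMP17 promoter gave 0.262 and 0.317 with Pool 2 and 0.527 and 0.354 with IL1RN, and the FHL2 promoter 0.387 and 0.697 against 1.1 and 0.808. In both, each Pool 2 library was below each control. The CISH promoter (0.608 and 0.760 against 0.964 and 0.657) and the HES2 promoter (0.704 and 1.33 against 1.83 and 0.960) overlapped. The log2 changes of the 4 promoters ranged from -0.86 to -0.23, below the median of all 23 regions, 0.44, and none was called. The highest control value was replicate 1 at all 4 promoters.

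The IL1RN promoter, of the gene for the interleukin-1 receptor antagonist, which the control gRNAs target, checks the labels. Its H3K27ac signal was 0.423 and 5.37 in the IL1RN libraries and 0.152 and 0.359 in the Pool 2 libraries, so the Pool 2 mean was 0.0881-fold that of the control. The control libraries differed widely, with replicate 1 in the range of the 6 remaining dCas9-p300(core) libraries with other pools (0.0271 to 0.540), and the change passed the test only with a block. Together with the MMP17 and FHL2 promoters and MMP17-B, a region 19399 bp upstream of MMP17 with at most 24 reads, it was among the 4 of 23 regions (17.4%) where both Pool 2 libraries were below both controls. Over the 18 regions that neither pool targets, 11 had a log2 change above 0, and the values ranged from -1.28 to 1.49 with a median of 0.29. CISH-B, 17373 bp downstream of the CISH start in HEMK1, was the highest of these, with 8 and 12 reads against 2 and 12.

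**Figure D2:**
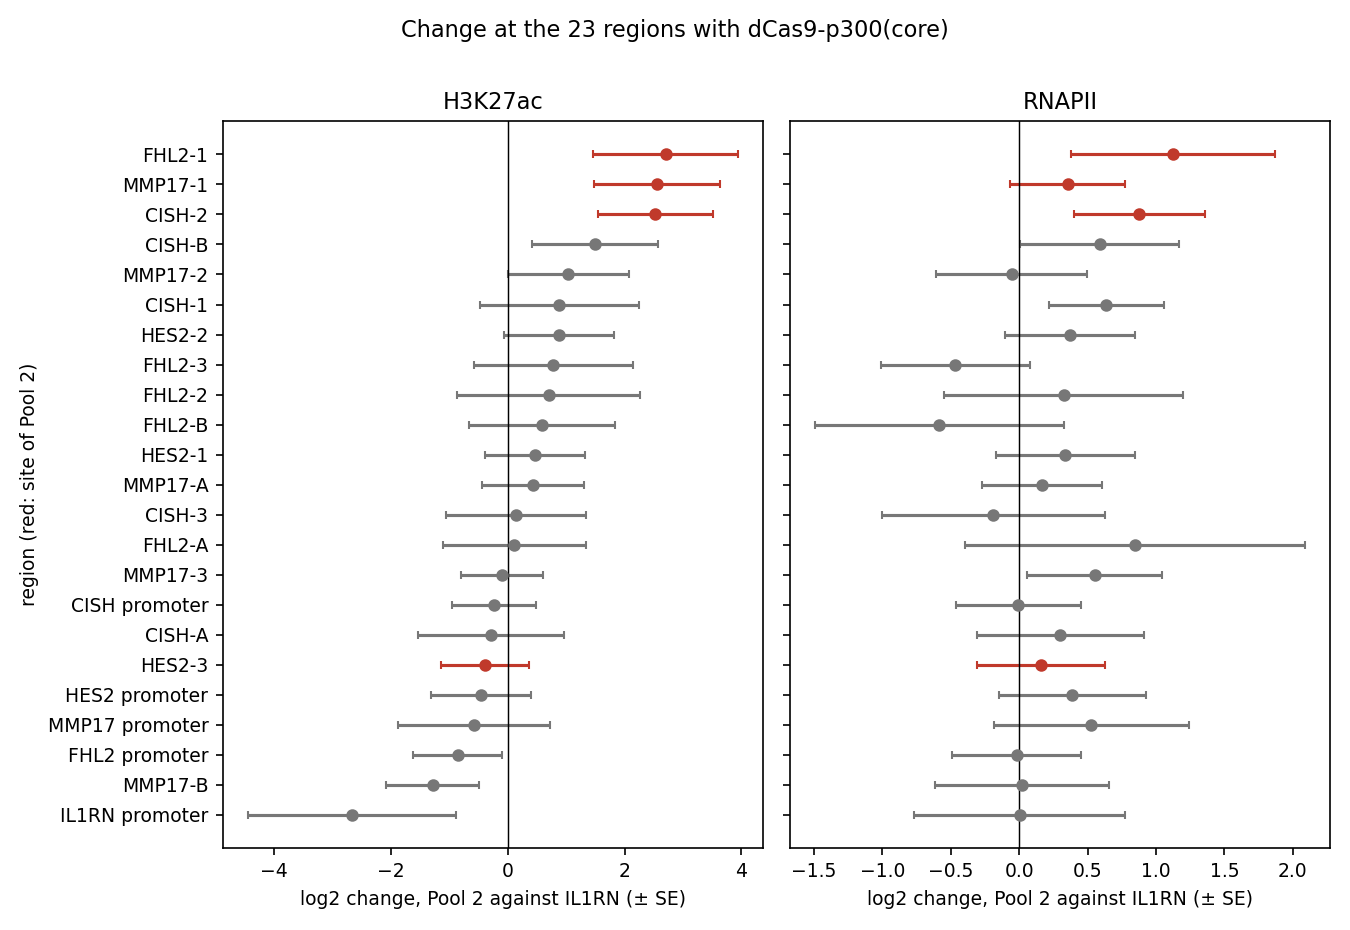
Log2 change of Pool 2 against IL1RN (horizontal axis, ± SE from limma) at the 23 regions for H3K27ac, left, and RNAPII, right, with regions ordered by the H3K27ac change and sites of Pool 2 in red. FHL2-1, MMP17-1 and CISH-2 are the top 3 for H3K27ac at 2.71, 2.55 and 2.53, and no RNAPII change is above 1.12.

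Peaks of H3K27ac were called at CISH-2 in both Pool 2 libraries and in neither IL1RN library. In each they formed a pair that flanked the gRNAs. In replicate 1 the peaks were chr3:50638104-50638542, with an enrichment over background of 8.26-fold, and chr3:50638751-50639688, with 12.4-fold. The second of these begins on the base after the last protospacer. In replicate 2 they were chr3:50637870-50638609, with 10.9-fold and an overlap of 28 bp with the gRNA span, and chr3:50638772-50639341, with 10.8-fold. None of the 6 other dCas9-p300(core) libraries had a H3K27ac peak in this region. The strongest of the peaks ranked at 38.4% of the list of replicate 1 and 12.8% of the list of replicate 2.

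MMP17-1 and FHL2-1 each had a pair of H3K27ac peaks in Pool 2 replicate 2 and none in replicate 1 or in the controls. Of the 6 other dCas9-p300(core) libraries, 1, from the pool of regions adjacent to the sites, had a H3K27ac peak in MMP17-1 (7.72-fold) and none in FHL2-1. The Pool 2 peaks of MMP17-1 ended 172 bp before the gRNA span (8.05-fold) and began 48 bp after it (7.29-fold). Those of FHL2-1 ended 62 bp before the span (12.2-fold) and covered its far end (7.10-fold). Over these sites and CISH-2, 8 peaks were called with Pool 2, and none of their summits lay within the gRNA span, the nearest being 419 bp from the centre of FHL2-1, whose gRNAs reach 406 bp. At HES2-3, peaks that overlapped the gRNAs were present in all 4 libraries, with 42.3-fold and 9.13-fold in the IL1RN libraries and 20.8-fold and 10.4-fold with Pool 2.

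**Figure D3:**
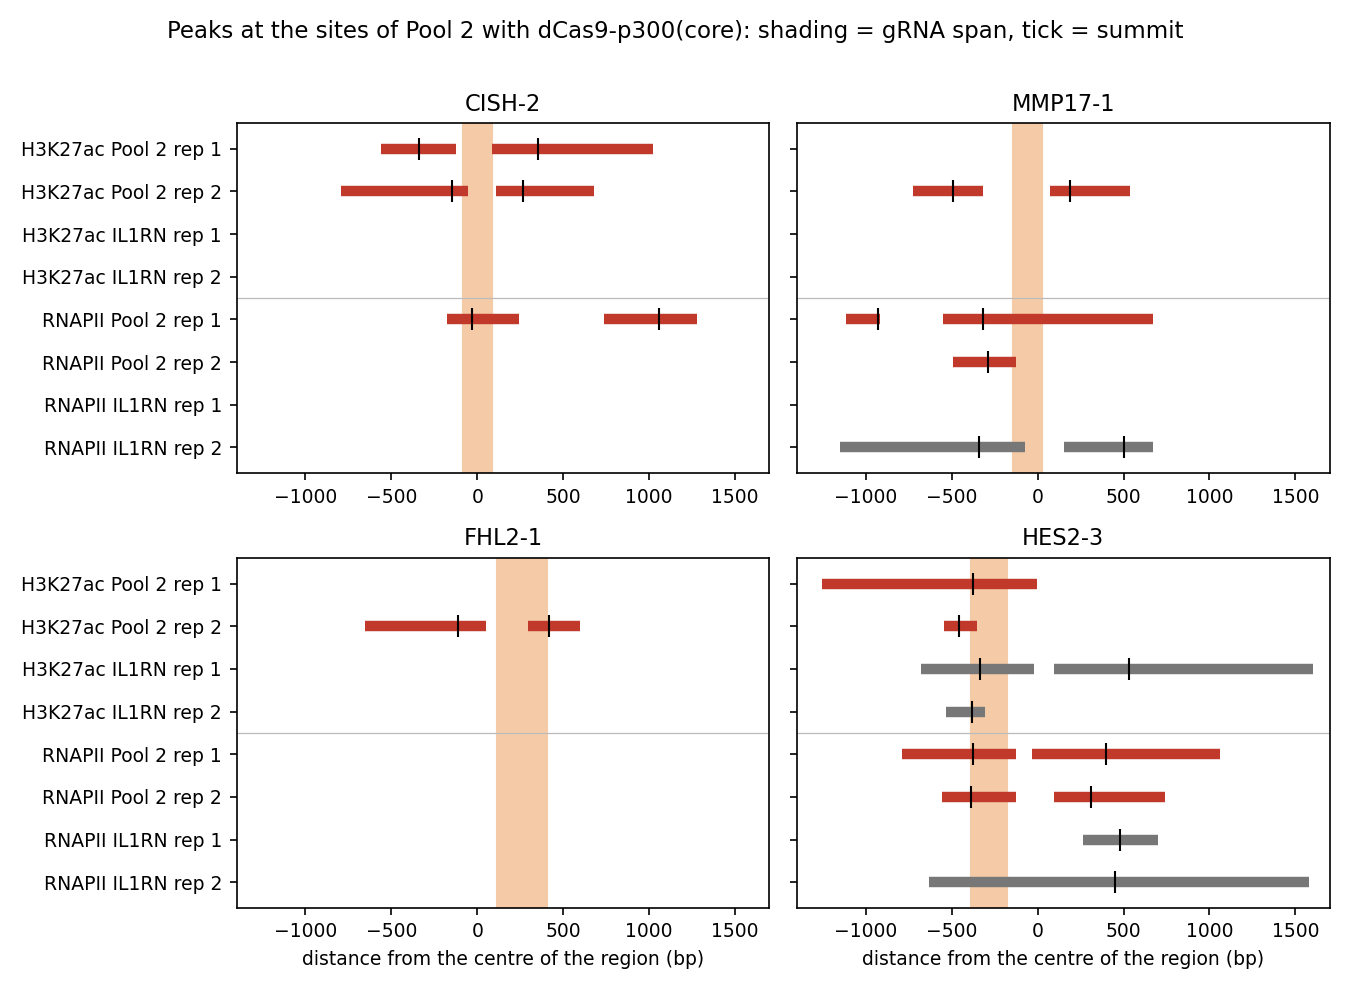
Extent of the peaks called in the 8 libraries at the sites of Pool 2, by distance from the centre of the region in bp, with Pool 2 in red and IL1RN in grey. Shading marks the span of the gRNAs and ticks the peak summits. H3K27ac peaks at CISH-2 occur with Pool 2 alone and lie on both sides of the gRNA span, whereas HES2-3 has peaks in every library.

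RNAPII passed no test at these sites. No region was called raised or lowered by limma (0.0% of 23), and none had an unadjusted p under 0.05. Both Pool 2 libraries were above both controls at CISH-2 and FHL2-1 alone, 8.7% of the 23 regions. RNAPII values played no part in the choice of FHL2-1. Whether RNAPII and H3K27ac libraries came from the same transfections is not known, so the RNAPII value there may not be independent of that choice.

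The RNAPII normalized signal at CISH-2 was 0.892 and 0.428 with Pool 2 and 0.388 and 0.288 with IL1RN, 1.95-fold in means (log2 change 0.88, SE 0.48, adjusted p = 0.938, limma). A Pool 1 library at 0.742 lay above the lower Pool 2 value, and the exact two-sided permutation p against the other 8 libraries was 0.0889. At FHL2-1 the signal was 0.124 and 0.102 against 0.0566 and 0.0434, 2.26-fold (log2 change 1.12, SE 0.75, adjusted p = 0.938, limma), with the same permutation p by the exact test. Levels there were low and rest on 37 and 16 reads against 7 and 11, and no RNAPII peak was called at FHL2-1 in any of the 4 libraries.

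At MMP17-1 the RNAPII signal was 1.43 and 0.978 with Pool 2 and 0.654 and 1.30 with IL1RN, and at HES2-3 it was 1.85 and 1.53 against 0.945 and 2.41. Both overlapped. RNAPII peaks were present at both sites in all 6 of the other dCas9-p300(core) libraries, while of the 2 IL1RN libraries 1 had a peak at MMP17-1 and both had one at HES2-3. A RNAPII peak was called at CISH-2 in Pool 2 replicate 1, with its summit within the gRNA span 33 bp from the centre and an enrichment of 18.7-fold, and not in replicate 2 or the controls. Of the 6 other dCas9-p300(core) libraries, 2 had a RNAPII peak in the region.

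At the promoters the RNAPII signal of the groups overlapped. Their Pool 2 means were 0.892-fold to 1.09-fold those of IL1RN, and at all 4 the control replicates lay on either side of both Pool 2 values, with replicate 1, the library of 819 reads, the lower. At the CISH promoter, for example, the signal was 1.15 and 0.971 with Pool 2 and 0.711 and 1.58 with IL1RN. At the MMP17 promoter it was 0.426 and 0.332 against 0.0889 and 0.746, the latter from 11 and 189 reads. Over the 23 regions, the log2 changes of H3K27ac and RNAPII correlated with r = 0.41, and with r = 0.11 over the 19 regions that Pool 2 does not target. This is a correlation across regions of the same libraries, which are not independent replicates.

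**Figure D4:**
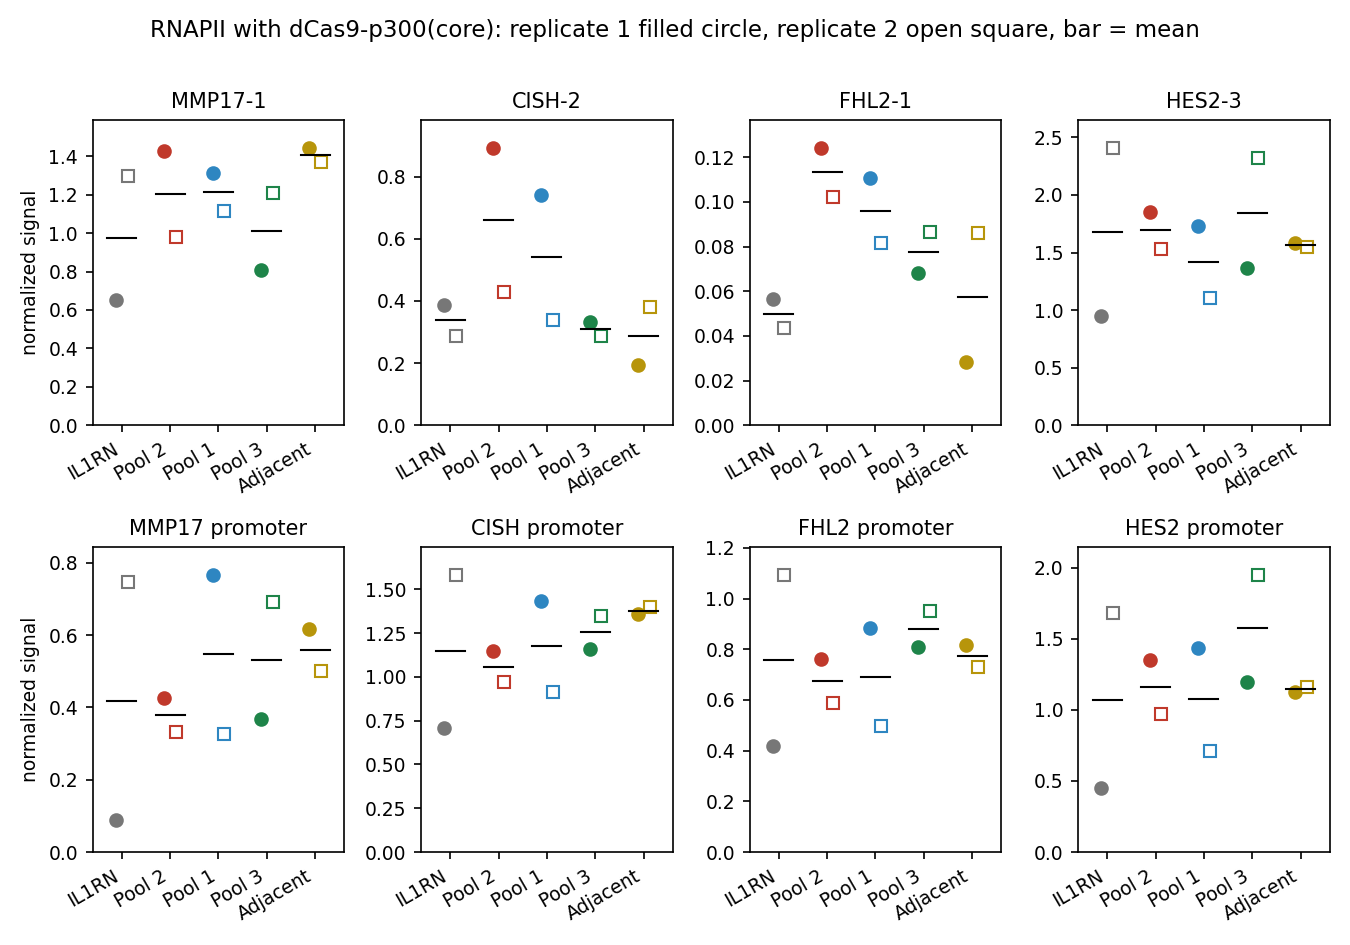
RNAPII normalized signal (vertical axis, linear, from 0) in the 10 dCas9-p300(core) libraries, by gRNA pool, at the sites used for Pool 2 (top) and the promoters of the target genes (bottom). Filled circles are replicate 1, open squares replicate 2 and bars the mean of the 2. At CISH-2 and FHL2-1 both Pool 2 points lie above both IL1RN points, and at each promoter both lie between the IL1RN points.

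The same gRNAs were used with dCas9-VP16(10x), a fusion of viral activation domains without acetyltransferase activity of its own. H3K27ac with Pool 2 was 8.06-fold that of the IL1RN control of that construct at MMP17-1 and 7.23-fold at FHL2-1. It was 3.75-fold at CISH-2 and 0.676-fold at HES2-3. The order was that found with dCas9-p300(core). Since FHL2-1 and HES2-3 were assigned to Pool 2 after H3K27ac values had been seen, this order supports nothing. The difference between the constructs in log2 change was 0.29 at CISH-2 (SE 1.40) and -0.47 at MMP17-1 (SE 1.53), with an adjusted p of 0.981 for both (limma). No region differed between constructs for either antibody by limma (0.0% of 23), and none did at an unadjusted p under 0.05. With SEs of this size, a difference of several fold would not have been detectable. The H3K27ac peaks of dCas9-VP16(10x) at CISH-2 ran across the gRNAs in both Pool 2 libraries, as 1 peak of 2309 bp and 1 of 3066 bp. Replicate 2 of its IL1RN control also had a pair of H3K27ac peaks there (9.01-fold and 13.7-fold). Among the H3K27ac libraries outside the 4 compared, 8 had a peak at chr3:50638751-50639688 and 7 at chr3:50637870-50638609. All of these carried dCas9-VP16(10x), both of its Pool 2 libraries among them, so peaks at CISH-2 also occurred without Pool 2 gRNAs.

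Across the genome, peaks of the 4 H3K27ac libraries merged into 21936 regions, of which 173 (0.789%) had a peak in both Pool 2 libraries and in neither IL1RN library. The opposite pattern held for 191 (0.871%). Both counts moved with the libraries used. With 1 library left out, the first was 684 without Pool 2 replicate 1, 2014 without Pool 2 replicate 2, 328 without IL1RN replicate 1 and 480 without IL1RN replicate 2. With the top 3020 peaks of each library, the first count was 67 and the opposite one 156. Of the 173 regions, 2 lay in the table's regions, and both were at CISH-2.

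Most of these 173 H3K27ac regions also had a peak with other gRNAs. A peak was present in at least 1 of the 6 other dCas9-p300(core) libraries at 168 of them, and at all 191 regions of the opposite pattern. The share over all merged regions was not counted. The 5 without one, named after their values were seen, were the 2 at CISH-2, 1 within ARHGAP18, 1 at 700 bp from a start of SMC5, a subunit of a chromosome maintenance complex, and 1 at 56587 bp from IGFBP3, which binds insulin-like growth factors. All 5 had peaks in both Pool 2 libraries of dCas9-VP16(10x), as did all 173 and 179 of the 191. Each of the 173 and each of the 191 had one in at least 1 IL1RN library of that construct. An HA peak of dCas9-p300(core) with all ERBS gRNAs was present at 2 of the 173 and at none of the 191. The shares with dCas9-VP16(10x) peaks and with HA peaks were likewise not counted over all merged regions.

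By the lower of the 2 enrichments, CISH-2 was number 3 of the 173 regions. The 10 highest were in ROBO1 (12.8-fold and 12.1-fold in replicates 1 and 2), in MEIG1 661 bp from a start (12.6-fold and 12.1-fold), at CISH-2 (12.4-fold and 10.8-fold), 4030 bp from a start of ZIC2 (14.2-fold and 10.8-fold), in FMN1, in GCNT1 327 bp from a start, in VEPH1, in OGDH, in SEMA3A 78956 bp from a start, and in SEMA3C, where the nearest start is of CD36. Of these, CISH-2 alone had no peak in the other 6 dCas9-p300(core) libraries, and the other 9 had one in 1 to 3 of them. With dCas9-VP16(10x), 8 libraries had a peak at this CISH-2 region. The other CISH-2 region was number 33. ROBO1 and the semaphorins SEMA3A and SEMA3C take part in axon guidance, ZIC2 is a zinc finger transcription factor and OGDH an enzyme of the citric acid cycle. They are named by rank, and no grouping of them was tested.

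The 173 regions were mostly away from promoters. Of them 26 (15.0%) lay within 1000 bp of a protein-coding start, against 61.9% of all merged H3K27ac regions and 80.1% of the 191 regions with the opposite pattern. Within protein-coding genes lay 113 of the 173 and 158 of the 191, a share not counted over all merged regions. IL1RN replicate 1 had the longest list, and 10909 merged regions had a peak in it alone. A part of list length in these shares was not tested.

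**Figure D5:**
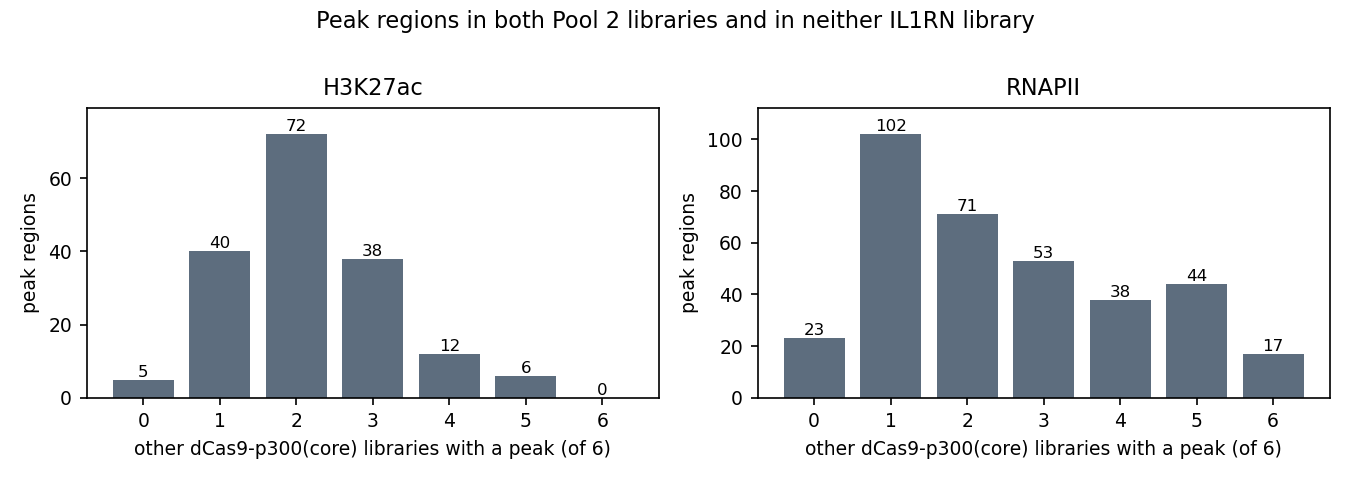
Number of peak regions (vertical axis, from 0) that had a peak in both Pool 2 libraries and in neither IL1RN library, by how many of the 6 other dCas9-p300(core) libraries also had a peak there, for H3K27ac, left, and RNAPII, right. Few had none: 5 of 173 for H3K27ac, of which 2 are at CISH-2, and 23 of 348 for RNAPII. The shares over all merged regions were not counted.

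For RNAPII, the 4 libraries gave 46009 merged regions. Of these, 348 (0.756%) had a peak in both Pool 2 libraries and in neither IL1RN library, and 33 (0.0717%) had the opposite pattern. The Pool 2 libraries also had the longer lists together, and with the top 18809 peaks of each library the counts were 147 and 64. Leaving out Pool 2 replicate 1 gave 2181, Pool 2 replicate 2 14505, IL1RN replicate 1 940 and IL1RN replicate 2 4640. None of the 348 lay in the 23 regions.

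A peak was present in at least 1 of the 6 other dCas9-p300(core) libraries at 325 of the 348 RNAPII regions, and at 31 of the 33 with the opposite pattern. Both Pool 2 libraries of dCas9-VP16(10x) had one at 8 of the 348 and at 4 of the 33. At 13 of the 348 and none of the 33 no other RNAPII library had a peak. None of these shares was counted over all merged RNAPII regions, so they describe no trait of the 348. By the lower enrichment, the 10 highest were nearest to starts of C7orf50 (15.3-fold and 16.7-fold), ABHD16B (24.2-fold and 14.6-fold), CCDC71 (14.5-fold and 14.7-fold), PDZK1, BUD31, DNAJB2, PPP2CB, ZNF83, SPATA21 and SEC13. All 10 had a peak in 1 or more of the 6 other libraries, and the region near ABHD16B had one in all 6. Within 1000 bp of a protein-coding start lay 43 (12.4%), against 39.9% of all merged RNAPII regions.

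No gene near the sites had a promoter peak in the Pool 2 libraries alone. Within 100 kb of the centre of a site lie the starts of 17 protein-coding genes. For H3K27ac, none of the 17 had a peak within 1000 bp of a start in both Pool 2 libraries and in neither control, and over all 19807 protein-coding genes 0.0656% did. For RNAPII the count was also none, beside 0.0454% of all genes. The opposite pattern held for H3K27ac at 1 of the 17, SFSWAP (41.1-fold and 9.64-fold in the IL1RN libraries), and for RNAPII at none. Its share over all genes was not counted. IL1RN replicate 1 had a H3K27ac peak at 15 of the 17, Pool 2 replicate 1 at 5, Pool 2 replicate 2 at 1 and IL1RN replicate 2 at 3, which is also the order of the lengths of their peak lists.

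The H3K27ac peaks at these starts included TGFBRAP1 (23.6-fold in Pool 2 replicate 1, 63.2-fold in IL1RN replicate 1), which acts in endosomal transport, MAPKAPK3 (9.66-fold and 52.3-fold), a stress-activated kinase that shares a promoter region with CISH, and ACOT7 (22.6-fold and 95.2-fold), an acyl-CoA thioesterase. None of these was called in replicate 2 of either group. At a CISH start, H3K27ac was called in IL1RN replicate 1 alone (18.6-fold), while RNAPII was called in all 4 libraries (23.6-fold and 12.9-fold with Pool 2, 8.61-fold and 36.5-fold with IL1RN). At an MMP17 start, RNAPII was called in replicate 1 with Pool 2 (8.77-fold) and in replicate 2 with IL1RN (19.3-fold). For RNAPII, 11 of the 17 genes had a peak in all 4 libraries.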

How the data were processed

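ChIP-seq of H3K27ac and RNAPII in Ishikawa cells was analysed from 1 deposited table of 23 regions and 1 peak list per library. Per the labels and the study's methods, the authors aligned single-end reads to hg19 with Bowtie 1.1.2, removed duplicates with SAMtools, counted reads per region with bedtools and deposited a normalized signal, divided by total depth and by the average depth within overlapping peaks of the antibody. Each deposited peak list gives a fold enrichment, the ratio over background, and the −log10 of a p-value and a q-value for every peak, and MACS2 2.1.0.20140616 is named in the processing notes. No peak had a −log10 p below 10.0. No column of the table was left unassigned.

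The signal was tested as log2(signal + pseudocount), with the smallest value above 0 as pseudocount (0.00415 for H3K27ac and 0.00395 for RNAPII), by limma 3.58.1 in R 4.3.3. All 20 libraries of an antibody entered, with a mean for each construct and pool, with Benjamini-Hochberg adjustment over 23 regions and a threshold of 0.05. Residual degrees of freedom were 10. Folds are ratios of mean signals. Reads were recovered as whole multiples of each library's smallest step (tolerance 0.02 of a step) and used for depth and to check that replicates were separate libraries. They cover counting error only and entered no test between groups. Exact permutation tests were two-sided. Scripts were tested on simulated data.

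Peaks that shared at least 1 bp were merged. Starts, genes and exons were read from GENCODE on hg19, and gRNAs and printed bases from the supplementary gRNA table and hg19. Regions named are the sites and promoters, the 10 peak regions per antibody with the highest lower enrichment, and genes with a start within 100 kb of a site. Others are named only where called or at the end of a range. The members, lists and tests were chosen with earlier results of these data known. Replicate numbers are not said to pair libraries, so no replicate block is in the fit. Alternatives were other pseudocounts, filters, normalizations, control libraries, blocks, leaving out each library, and other thresholds and overlaps for peaks. Added after seeing the data were a replicate block with the 4 libraries alone and, for RNAPII, a crossed pairing. Expression was not measured in these libraries, and cell identity was not checked.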

Additional observations from a re-analysis of the deposited data

Results flagged for a closer look

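HA ChIP-seq, which detects the tagged dCas9 fusion itself, enters the text above only as peaks at the regions of the Pool 2 libraries. It was measured for dCas9-p300(core) with the gRNAs of all ERBSs together, in 2 libraries, and its only control with IL1RN gRNAs carried dCas9-VP16(10x), so the construct and the gRNAs cannot be told apart. The HA normalized signal was above this control in both libraries at all 4 sites. It was 16.3 and 20.9 at CISH-2 against 2.36 in the control, 6.58 and 12.0 at MMP17-1 against 1.70, 5.53 and 15.0 at FHL2-1 against 0.558, and 6.05 and 15.2 at HES2-3 against 2.31. At the IL1RN promoter the control gave 19.3 and the ERBS libraries 0 and 1.07.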

How the results depend on the processing

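For H3K27ac, 3 regions (MMP17-1, CISH-2 and FHL2-1) were called raised with the replicate block and with the presumed sequencing run as a block. The same 3 were raised with each library scaled to its median over the regions its own pool did not target. That scaling lowered the median change of all regions from 0.44 to 0.26. All 3 are sites as assigned here, but FHL2-1 was assigned after H3K27ac values had been seen, so its call supports nothing. With the replicate block the adjusted p was 0.0302 at CISH-2 and 0.0399 at MMP17-1, and no region was lowered. The run block also lowered 1 region. The replicate block on the 4 libraries alone, added after seeing the data, gave 3 raised, all sites as assigned here, and 1 lowered. limma with trend and robust settings raised 1 site, CISH-2 (adjusted p = 0.0465). The adjusted p of CISH-2 and MMP17-1 was 0.0972 or more with every other alternative that keeps all libraries. Replicate numbers 1 and 2 of Pool 2 and IL1RN deviated together in H3K27ac (r = 0.62 over 18 regions) and against each other in RNAPII (r = -0.39), where a crossed pairing raised 0 and lowered 0 regions. The blocks called no RNAPII region either, and none of the alternatives changed the count of sites highest in Pool 2 or of differences between constructs. Leaving out 1 library changed no count of called regions.

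H3K27ac peak regions in both Pool 2 libraries alone numbered 105 with a −log10 p of at least 20 and 67 with lists of equal length, and 328 to 2014 with 1 library left out. For RNAPII they numbered 147 with equal lists and 940 to 14505 with 1 left out. The cause was not tested beyond these settings.

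With the other dCas9-p300(core) libraries as control, leaving out at each region those with gRNAs for it, the log2 change was 0.14 for H3K27ac at the CISH promoter, 0.85 at the IL1RN promoter (-0.032 with all 8, the IL1RN libraries included) and -0.21 for RNAPII at the MMP17 promoter. For RNAPII at the IL1RN promoter it was -0.032 with a pseudocount 4 times larger and -0.040 with the median normalization. With 1 library left out, the log2 change of H3K27ac ranged from -1.09 to 0.32 at HES2-3, -0.51 to 1.43 at HES2-1, -0.72 to 2.29 at FHL2-3, -0.92 to 0.012 at the HES2 promoter and -0.50 to 0.049 at the CISH promoter. For RNAPII it ranged from -0.14 to 0.85 at MMP17-1, -0.51 to 0.83 at HES2-3, -0.34 to 1.01 at HES2-1, -1.11 to 0.18 at FHL2-3, -0.98 to 2.03 at the MMP17 promoter, -0.55 to 1.33 at the HES2 promoter, -0.71 to 0.67 at the FHL2 promoter, -0.58 to 0.57 at the CISH promoter and -1.16 to 1.16 at the IL1RN promoter. None of these changes was called, and the cause was not tested. The sign held at CISH-2, MMP17-1 and FHL2-1 for H3K27ac, with ranges of 1.33 to 3.73, 1.58 to 3.53 and 1.47 to 3.94. The edgeR alternative was not run, since the table holds a normalized signal and not counts. Its low values also did not pass a unit check as recovered whole reads. Read numbers given above for low signals are therefore estimates.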

Other observations

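The 16 gRNAs of Pool 2, as assigned here, were compared with the bases of the peak regions outside the 23 regions. Near-matches of all 20 bases beside an NGG PAM were sought on either strand. The gRNAs of FHL2-3 and HES2-1, which the methods put in Pool 2, were not compared. None of the 171 H3K27ac regions found in both Pool 2 libraries and in neither IL1RN library held a match with up to 4 mismatches, beside 47 of 21747 other H3K27ac regions (0.216%). Of the 348 RNAPII regions of that kind, 1 held a match with 4 mismatches (0.287%), beside 94 of 45644 others (0.206%), and none held one with up to 3. With shares this low among the others, sets of this size would hold few matches or none. The counts therefore cannot tell whether the gRNAs acted at these regions.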
